A study of Oryza sativa Japonica Group with 14 samples.

Results

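H3K27me3 is the repressive histone methylation that Polycomb complexes write on nucleosomes, and in plants it marks developmental genes that a tissue keeps silent. H3K4me3 is a methylation of active promoters. When a rice plant turns to flowering, the shoot apical meristem (SAM), which makes leaves, becomes the inflorescence meristem (IM), which makes the panicle. The regions described here carried H3K27me3 in the IM of all 3 genotypes studied and had no peak of either mark in the SAM. They were chosen by the presence and absence of called peaks, as the peaks of the wild-type (WT) IM H3K27me3 list that overlapped, by at least 1 bp, a peak of the SDG711 RNAi IM list and a peak of the jmj703 IM list, but no WT SAM peak of H3K27me3 or H3K4me3. This rule was met by 1074 of the 11157 WT IM H3K27me3 peaks (9.63%), and they are called IM-new regions below. The presence and absence that chose them are therefore a description and not a result.

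The series mapped both marks by ChIP-seq, which sequences the DNA that an antibody pulls down with its histone, in hand-dissected apices of field-grown rice of the DongJin background. The 3 IM groups were SDG711 RNAi plants, jmj703 plants and DongJin WT plants, all taken at the 10 to 12 leaf stage as apices of 1 to 2 mm, and the WT SAM group was taken at the 6 to 7 leaf stage as apices below 0.5 mm. The SDG711 protein of rice writes H3K27 methylation as part of a Polycomb complex, and the RNAi lines are meant to lower it. JMJ703 removes methyl groups from H3K4, and the jmj703 line carries a T-DNA insertion. Harvest of the RNAi IM fell on 17 to 19 June, that of the jmj703 and WT IM on 21 to 24 June, so RNAi and harvest dates cannot be told apart. Apices were pooled from some 400 plants, and how many plants each library held is not given in the labels. With a single library and peak list for every group and mark, no spread between replicates can be given, and no difference below was tested. Each interval is a 95% Wilson interval over peaks, covers counting error alone, and treats neighbouring peaks as independent. In pooled tissue, a mark in fewer cells and less of the mark per cell cannot be told apart.

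The H3K27me3 libraries held 10502005 tags in SDG711 RNAi IM, 14337383 in jmj703 IM, 22887617 in WT IM and 16321456 in WT SAM. Their lists held 8000, 10745, 11157 and 12551 peaks in the same order. The IM H3K4me3 libraries held 17941001, 4869161 and 18452560 tags in SDG711 RNAi, jmj703 and WT, so an absent H3K4me3 peak weighs least in jmj703 IM. Positions are those of the deposited lists. No source used here gives their genome build, and genes and sequences at the regions were not analysed here.

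The rule narrowed the WT IM list in steps. No WT SAM H3K27me3 peak overlapped 3517 of the 11157 peaks, a share of 31.5%, and 2355 of these had no WT SAM H3K4me3 peak either. Of the 2355, SDG711 RNAi IM also had a peak at 1331 (56.5%, interval 54.5 to 58.5%), and jmj703 IM at 1451 (61.6%, interval 59.6 to 63.6%). Both lists held the 1074 IM-new regions, while 377 were missing in SDG711 RNAi IM alone, 257 in jmj703 IM alone, and 647 in both. Of the 6164 WT IM peaks listed in all 3 IM lists, the 1074 made up 17.4%. The set used for comparison is the 3500 WT IM peaks that lay in all 3 IM lists and in the WT SAM H3K27me3 list, again with no WT SAM H3K4me3 peak. They are called kept regions.

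The IM-new regions covered 2.26 Mb, or 8.65% of the sequence under WT IM H3K27me3 peaks, and the kept regions covered 10.6 Mb (40.6%). Few regions lay within 50 bp of the border that WT SAM H3K27me3 set, and more lay within 500 bp. The 2 IM-new regions nearest to WT SAM H3K27me3 lay 3 bp from such a peak, at chr3:31280534-31281851 and at chr3:8077335-8079422. The 2 regions that missed membership by least overlapped a WT SAM H3K27me3 peak by 21 bp, at chr3:33228898-33230436, and by 31 bp, at chr11:23929193-23930366. In all, 14 IM-new regions lay within 50 bp of a WT SAM H3K27me3 peak, and 6 kept regions overlapped one by at most 50 bp. At 500 bp these counts were 125 IM-new and 42 kept regions.

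The IM-new region with the smallest p lay at chr11:6946059-6949036. It held 295 tags in SDG711 RNAi IM, 327 in jmj703 IM and 491 in WT IM, from peaks 2905, 2933 and 2978 bp long. As tag densities, which are tags per kb of peak and per 1000000 tags of the library, these are 9.67, 7.78 and 7.20. Its deposited fold enrichment was 4.98 in SDG711 RNAi IM, 4.38 in jmj703 IM and 4.15 in WT IM. This fold is the authors' ratio of the peak to the background around it in its own library. By density, SDG711 RNAi IM was thus highest and WT IM lowest. Folds rest on the background of their own library and are not compared between libraries.

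The second, at chr3:4868172-4870551, had densities of 9.77 in SDG711 RNAi IM, 8.82 in jmj703 IM and 7.78 in WT IM. The third, at chr8:23531038-23532915, had 8.89, 7.65 and 7.33 in the same order. WT IM was again lowest at both. The fourth, at chr10:8599077-8600824, was the most unequal of the 8 between genotypes. It held 330 tags in SDG711 RNAi IM, 322 in jmj703 IM and 354 in WT IM, although these libraries differ in size, and its densities were 16.8, 11.98 and 8.85.

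The next 4 had a −log10 p between 41.3 and 42.9 in WT IM. They were chr7:29429142-29431974, chr7:205097-206803, chr4:809343-811060 and chr6:26625331-26628375. Their SDG711 RNAi IM densities ran from 8.51 to 12.3, and their WT IM densities from 6.36 to 7.45. The region at chr7:205097-206803 was the only one of the 8 with a jmj703 IM density (7.00) below that of WT IM (7.45). None of the 8 overlapped an H3K4me3 peak in any IM list. Their distance from the nearest WT SAM H3K27me3 peak ran from 3900 bp on chromosome 11 to 36486 bp on chromosome 4.

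**Figure D1:**
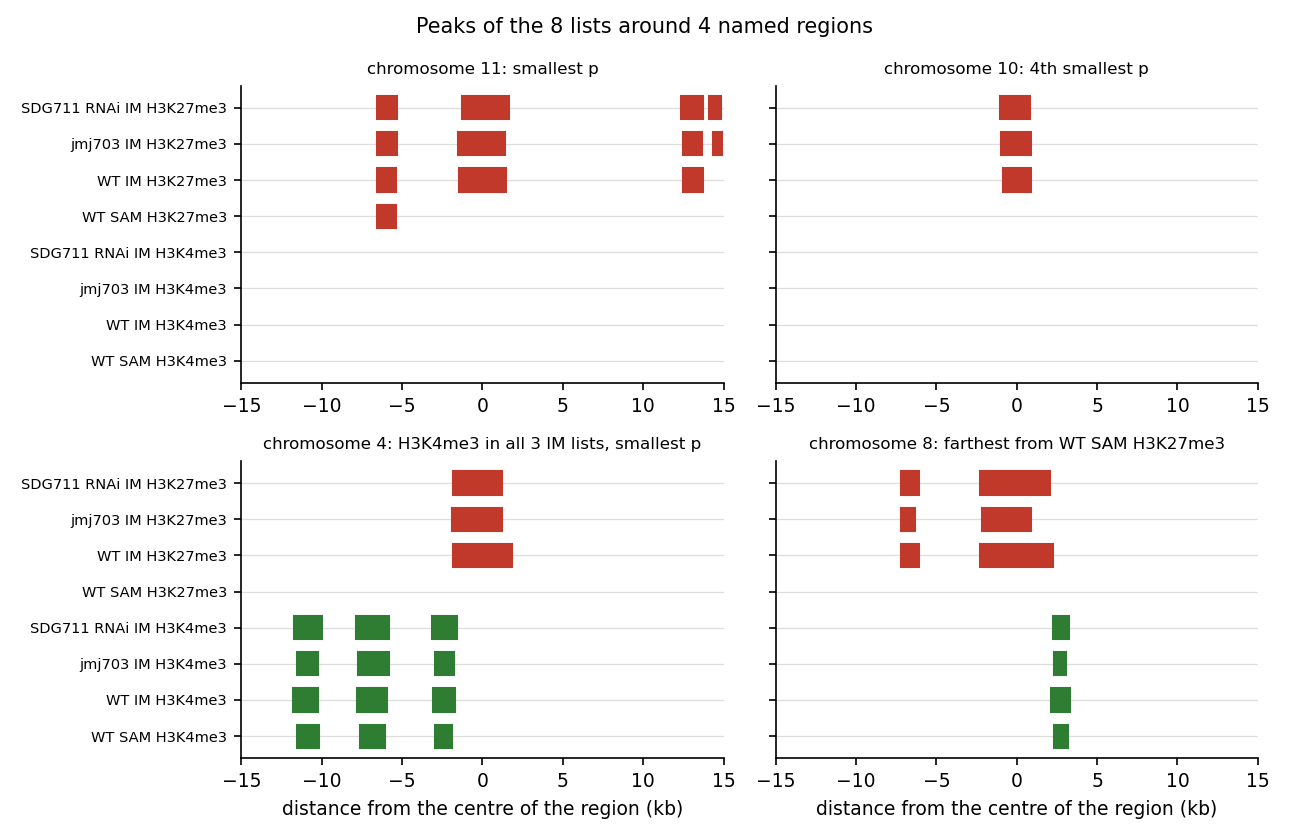
Peaks of the 8 lists (rows, H3K27me3 in red and H3K4me3 in green) within 15 kb of the centre of 4 IM-new regions; the horizontal axis is the distance from that centre in kb. The central red bar is present in the 3 IM H3K27me3 rows and absent from the WT SAM row in each map, and on chromosome 11 a second H3K27me3 peak 3900 bp away is in all 4 lists.

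The IM-new regions were shorter and weaker than the kept regions, and stronger than the other new peaks. Their median WT IM length was 1773.5 bp (quartiles 1295 and 2458 bp), against 2708 bp in kept regions (1880 and 3916 bp) and 1815 bp over all WT IM peaks. Their median −log10 p was 12.1 (quartiles 8.18 and 17.3), against 23.4 in kept regions and 13.2 over all WT IM peaks. The median fold enrichment was 3.27 in IM-new regions, 3.51 in kept regions and 3.29 over all WT IM peaks. Among the new peaks, the median −log10 p was 7.99 where SDG711 RNAi IM lacked the peak, 7.85 where jmj703 IM lacked it and 6.64 where both did. Presence in 3 libraries was part of the rule, and stronger peaks pass the cutoff in more libraries, so this order is a description of the sets.

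**Figure D2:**
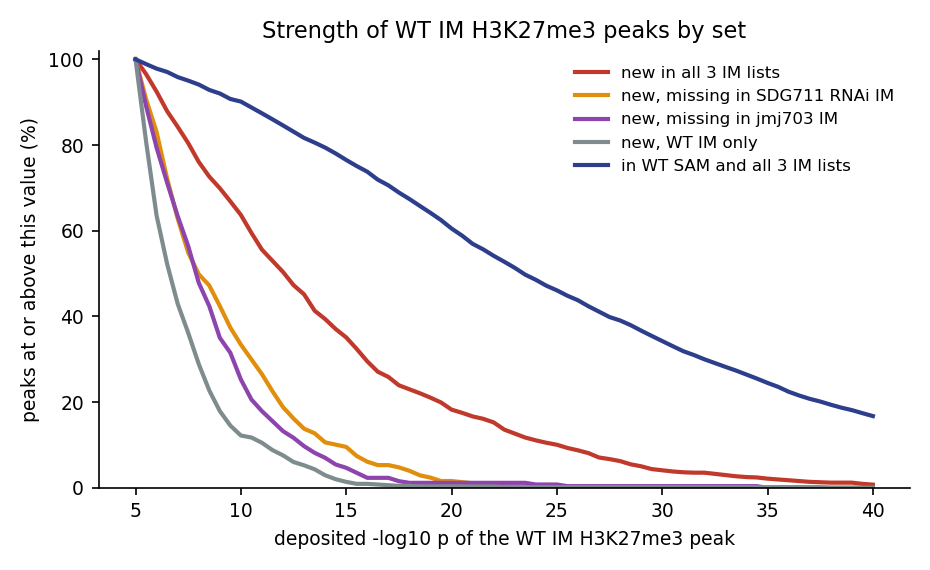
Share of WT IM H3K27me3 peaks (vertical axis, percent) with a deposited −log10 p at or above the value on the horizontal axis, for the 4 sets of new peaks and for kept regions. At a −log10 p of 10, 63.7% of IM-new regions (684 of 1074) and 90.1% of kept regions remained.

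The 5 longest IM-new regions were weaker than the median member, with a −log10 p between 5.71 and 9.49 in WT IM. They measured from 7251 to 7984 bp and had folds from 2.21 to 3.08, below the median of 3.27. The longest, at chr12:19778554-19786537, held 1102 tags in SDG711 RNAi IM, 636 in jmj703 IM and 1728 in WT IM. Its jmj703 IM peak was 4201 bp long and covered 52.6% of the WT IM peak, whereas the SDG711 RNAi IM peak of 7939 bp covered 98.3%. At chr7:1870813-1878596, 1368 tags in SDG711 RNAi IM, 1453 in jmj703 IM and 2250 in WT IM gave densities of 17.5, 13.04 and 12.6, at a WT IM fold of 2.21. The list of 5 was completed by chr7:2274829-2282337, chr6:7366248-7373729 and chr4:19661145-19668395. The longest regions thus had many tags and high densities at a low fold. Of all IM-new regions, 44 were 5 kb or longer (4.10%) and 75 were under 1 kb (6.98%).

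The H3K27me3 tag density of the IM-new regions was higher in both altered genotypes than in WT IM, as it was over all shared peaks. The medians were 7.39 in SDG711 RNAi IM (quartiles 6.36 and 8.69), 6.45 in jmj703 IM (5.68 and 7.37) and 5.62 in WT IM (5.01 and 6.42). WT IM had the lowest of the 3 densities at 927 of the 1074 regions (86.3%, interval 84.1 to 88.2%), against 76.9% of all 6164 peaks in the 3 IM lists and 74.5% of kept regions. SDG711 RNAi IM had the highest density at 896 (83.4%, interval 81.1 to 85.5%), against 70.1% of all such peaks and 71.5% of kept regions. The full order, SDG711 RNAi above jmj703 above WT, was met at 776 (72.3%), against 58.5% of all such peaks. In kept regions the medians were 8.46, 7.79 and 7.05 in the same order of libraries, with 7.03 in WT SAM, and the full order held at 58.6%. All these densities come from lists that the rule used. A member needed a called peak in both altered libraries, which were shallower, and IM-new regions were weaker in WT IM than kept regions. The shares are therefore a description, and the part of this selection in them was not tested.

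**Figure D3:**
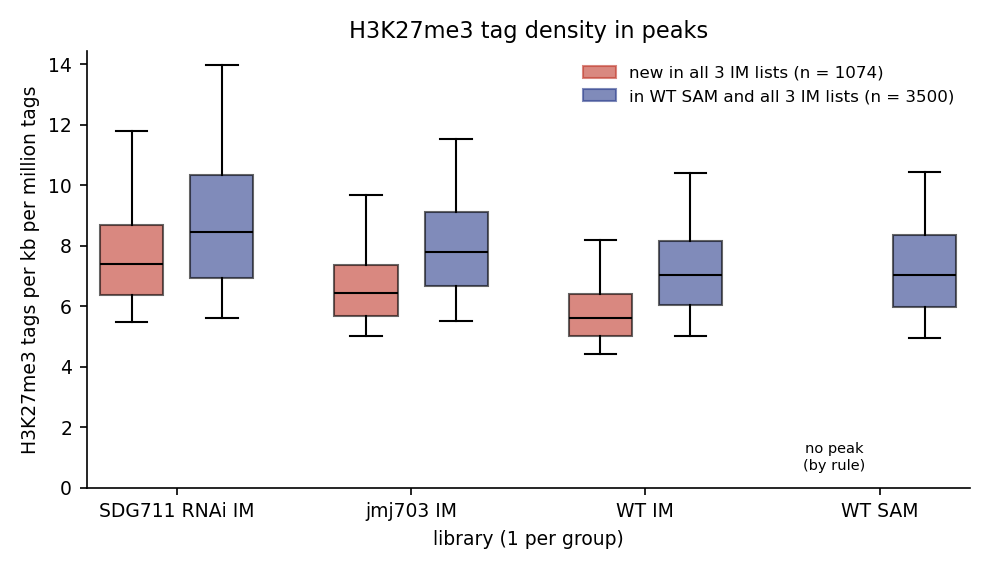
H3K27me3 tags per kb per 1000000 library tags (vertical axis, from 0) in IM-new regions (red) and kept regions (blue) for each library; boxes show quartiles and median over peaks, and whiskers the 5th and 95th percentiles. The red medians are 7.39, 6.45 and 5.62 in the 3 IM libraries, each below the blue one of its library, and WT SAM has no peak at IM-new regions by the rule.

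Read as a ratio, the SDG711 RNAi IM density over that of WT IM had a median log2 of 0.38 in IM-new regions (quartiles 0.23 and 0.54), against 0.29 in kept regions and 0.30 over the 6715 WT IM peaks found in both lists. A density at least 1.5-fold higher in SDG711 RNAi IM was seen at 207 of the 1074 regions (19.3%, interval 17.0 to 21.7%), where 11.6% of all peaks in both lists passed that fold and 9.60% of kept regions did. At least 1.5-fold lower was seen at 0 of 1074 regions, which allows a share of up to 0.279% (3 counts of 1074, not a Wilson bound), where the share over all peaks in both lists was 0.0745%. Membership asked for a called SDG711 RNAi IM peak, and the lowest density among these was 4.76, against a WT IM median of 5.62. The rule thus left most regions little room for a drop of that size, so the 0 does not measure loss. For jmj703 IM over WT IM the median log2 ratio was 0.20 (quartiles 0.08 and 0.31), against 0.14 in kept regions and 0.16 over the 8568 peaks in both lists. Here 15 regions were at least 1.5-fold higher (1.397%), close to the 1.61% of all peaks, and 0 were as far lower, as were 0% of all peaks. The rule limited a drop in jmj703 IM in the same way.

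The altered libraries were the shallower ones, so a weak WT IM region could be a member only where their density was high enough to pass the cutoff. The ratio was therefore also read within ranges of the WT IM −log10 p. Between 5 and 7.5, the median log2 ratio of SDG711 RNAi IM over WT IM was 0.46 in 210 IM-new regions and 0.43 in 174 kept regions. Between 10 and 15 it was 0.37 in 307 IM-new and 0.33 in 477 kept regions. Between 20 and 30 it was 0.34 in 152 IM-new and 0.25 in 919 kept regions, and at 30 and over it was 0.40 in 44 and 0.26 in 1199. The IM-new value was the higher of the pair in each range but 7.5 to 10, where both were 0.39. For jmj703 IM the medians were 0.26 in IM-new and 0.28 in kept regions between 5 and 7.5, 0.13 in both between 20 and 30, and 0.17 and 0.11 at 30 and over. IM-new regions were shorter than kept regions at equal strength, with medians of 2216 and 2827 bp between 20 and 30, and the part of length in the ratio was not tested.

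Presence in the altered genotypes was also compared at equal strength, since it decides membership. The classes were the 2355 WT IM peaks with no WT SAM peak of either mark and the 5198 with a WT SAM H3K27me3 peak and no WT SAM H3K4me3 peak. Without regard to strength, the new class was found less often in SDG711 RNAi IM, at 56.5% against 70.9% of the class with WT SAM H3K27me3, and less often in jmj703 IM, at 61.6% against 85.1%. Within the ranges of −log10 p from 7.5 to 30, the order in SDG711 RNAi IM was the opposite. Between 10 and 15, 69.2% of new peaks had a SDG711 RNAi IM peak (360 of 520, interval 65.1 to 73.0%), against 57.1% of those with WT SAM H3K27me3 (527 of 923, interval 53.9 to 60.3%). Between 15 and 20 the shares were 83.7% (interval 78.3 to 87.9%) and 72.5% (interval 69.4 to 75.5%), and between 20 and 30 they were 95.7% (interval 91.3 to 97.9%) and 87.9% (interval 85.8 to 89.7%). Between 5 and 7.5 they were 35.6% and 35.5%.

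In jmj703 IM the new peaks were listed less often than the others in the 3 weakest ranges, and within 4 percentage points of them above. The shares were 76.3% of new peaks and 80.7% of the others between 10 and 15, with intervals of 72.5 to 79.8% and 78.0 to 83.1%. Between 20 and 30 they were 98.1% and 97.5%. In the weakest range, 5 to 7.5, 42.0% of new peaks (interval 38.8 to 45.2%) and 51.0% of the others (interval 47.1 to 54.9%) were listed in jmj703 IM. These shares rest on the lists that the rule used, and the difference between the genotypes was not tested.

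**Figure D4:**
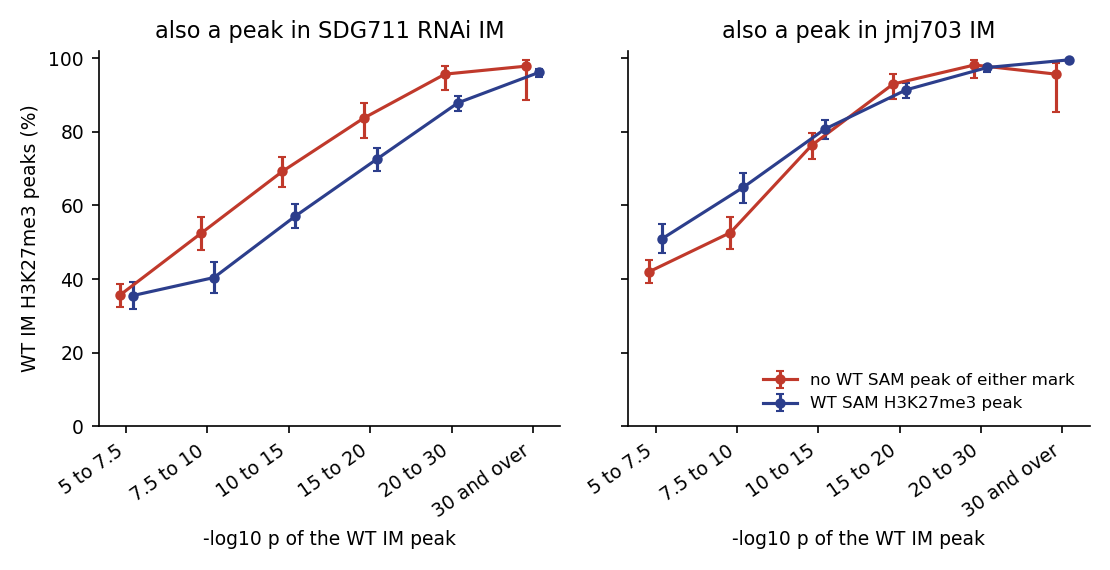
Share of WT IM H3K27me3 peaks (vertical axis, percent, with 95% Wilson intervals) that were also peaks in SDG711 RNAi IM (left) or jmj703 IM (right), by range of the WT IM −log10 p, for peaks with no WT SAM peak of either mark (red) and with a WT SAM H3K27me3 peak (blue). In SDG711 RNAi IM red lies above blue between 7.5 and 30, for example 69.2% against 57.1% between 10 and 15, and in jmj703 IM red lies below blue under 15.

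Single regions at both ends of the ratio each rest on 1 library per group, so they do not measure how far genotypes differ. Over all members, the highest log2 ratio over WT IM was 1.33 for SDG711 RNAi IM and 0.87 for jmj703 IM. The regions named for their ratios were taken from members with p at most 1e-10. The highest SDG711 RNAi IM over WT IM log2 ratio, 1.16, was at chr3:35617076-35618516, where densities were 13.2 in SDG711 RNAi IM, 7.90 in jmj703 IM and 5.91 in WT IM. The region chr1:38270897-38272945 followed at 1.09, where the SDG711 RNAi IM peak was 3837 bp long, the jmj703 IM peak 3980 bp and the WT IM peak 2049 bp. The region chr10:21062052-21063096 had a ratio of 1.07. The choice by ratio fixed that the SDG711 RNAi IM peak was denser at all 3 of these regions. It was also longer than the WT IM peak at 2 of them.

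The lowest ratios of SDG711 RNAi IM over WT IM were small, at −0.23 at chr8:18946821-18947707, −0.23 at chr11:4535078-4537117 and −0.21 at chr8:27509139-27510414. On chromosome 11, densities were 5.42 in SDG711 RNAi IM, 6.39 in jmj703 IM and 6.36 in WT IM, and the SDG711 RNAi IM peak of 931 bp covered 35.9% of the WT IM peak. Its 53 tags and −log10 p of 5.22 lay just above the cutoff, so it was close to leaving the set.

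For jmj703 IM, the highest log2 ratios over WT IM were 0.68 at chr6:25417086-25419232, 0.67 at chr6:30709115-30710401 and 0.65 at chr7:2483189-2485581. At the first of these the jmj703 IM density of 9.79 also exceeded the 8.97 of SDG711 RNAi IM, against 6.11 in WT IM. The lowest were −0.45 at chr12:13349231-13349873, −0.44 at chr4:9276159-9277526 and −0.42 at chr3:32732932-32734359. All 3 had a SDG711 RNAi IM density above that of WT IM, for example 10.2 in SDG711 RNAi IM, 5.58 in jmj703 IM and 7.61 in WT IM on chromosome 12.

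The rule asked for an overlap of at least 1 bp with a peak of both altered lists, so some agreement in position was set in advance. A median of 90.2% of an IM-new region was covered by its SDG711 RNAi IM peaks and 94.4% by its jmj703 IM peaks, close to the 90.3% and 94.4% of kept regions. At 999 of the 1074 regions (93.0%, interval 91.3 to 94.4%) both lists covered at least 50% of the WT IM peak, near the 92.2% over all peaks in the 3 IM lists. The summit, the highest point of a peak, of the SDG711 RNAi IM peak lay a median of 206 bp from the WT IM summit, and that of the jmj703 IM peak 142 bp. Both summits were within 500 bp at 683 regions (63.6%, interval 60.7 to 66.4%), against 54.1% of kept regions (interval 52.4 to 55.7%), which are longer. At the other 391 IM-new regions at least 1 summit lay farther away. Where a region matched a single peak in each direction, the SDG711 RNAi IM peak had a median of 0.95 times the WT IM length (984 regions) and the jmj703 IM peak 0.98 times (992 regions).

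Most IM-new regions lay apart from the H3K27me3 of the SAM. The nearest WT SAM H3K27me3 peak was a median of 6954.5 bp away (quartiles 1982 and 16227 bp). It was within 1 kb at 184 regions (17.1%, interval 14.99 to 19.5%), within 5 kb at 435 (40.5%, interval 37.6 to 43.5%) and beyond 20 kb at 208 (19.4%, interval 17.1 to 21.8%). Over all 2355 new peaks with no WT SAM mark, 39.2% were within 5 kb, so the distance was not particular to the regions present in every genotype. New peaks missing in jmj703 IM lay nearest, with 49.8% within 5 kb, against 34.0% of those missing in SDG711 RNAi IM.

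**Figure D5:**
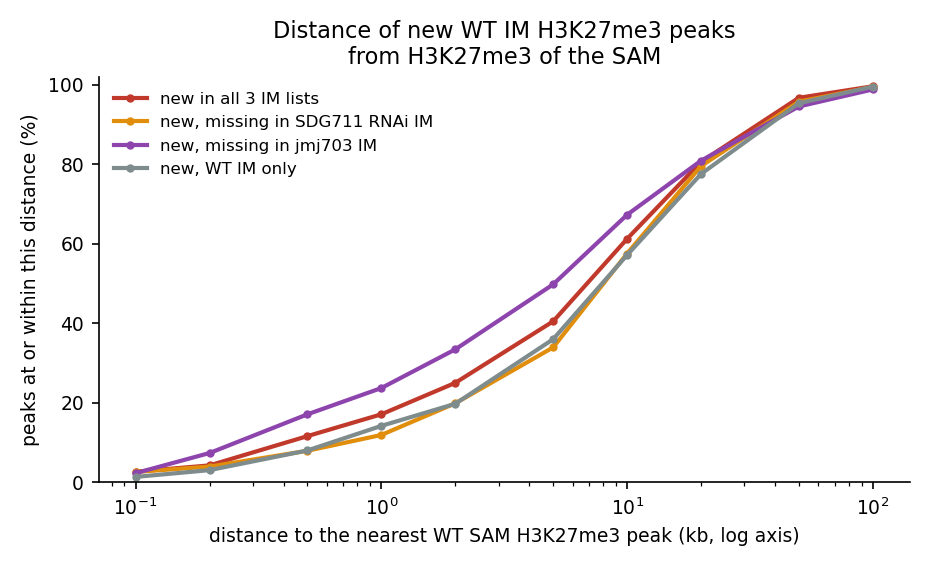
Share of new WT IM H3K27me3 peaks (vertical axis, percent) at or within a distance (horizontal axis, kb, log axis) of the nearest WT SAM H3K27me3 peak, for the 4 sets of new peaks. At 5 kb the IM-new regions stand at 40.5%, the new peaks missing in SDG711 RNAi IM at 34.0% and those missing in jmj703 IM at 49.8%.

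Regions far from the SAM mark had smaller p and higher folds, but not higher tag densities. The median −log10 p was 13.4 among the 208 regions beyond 20 kb and 10.1 among the 184 within 1 kb, and median folds were 3.49 and 3.12. Lengths ran the other way, with medians of 1630 bp beyond 20 kb and 1810.5 bp within 1 kb. So did WT IM tag densities, with medians of 5.38 beyond 20 kb and 5.93 within 1 kb. The density ratio of SDG711 RNAi IM over WT IM did not follow distance, with medians between 0.37 and 0.40 on the log2 scale in 4 ranges of distance. In 131 regions (12.2%) the neighbour within 1 kb was a WT IM peak that overlapped WT SAM H3K27me3, so the new region lay beside H3K27me3 that the SAM already had. These had a median −log10 p of 8.51, against 12.6 in the other 943.

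Among members with p at most 1e-10, the farthest from WT SAM H3K27me3 was at chr8:18988622-18993168, at 89373 bp. It held 419 tags in SDG711 RNAi IM, 321 in jmj703 IM and 693 in WT IM, at densities of 9.07, 7.32 and 6.66. The next were chr2:13828625-13830250 at 85418 bp, chr3:20473477-20475526 at 81215 bp and chr12:6518565-6519476 at 70566 bp. In this group chromosome 2 alone had a lower density in jmj703 IM (5.17) than in WT IM (6.23). The region on chromosome 8 also overlapped H3K4me3 in SDG711 RNAi IM and in WT IM, but only at its edge, which lay 2.273 kb from its centre. The H3K4me3 peak began 2.241 kb from that centre in SDG711 RNAi IM and 2.105 kb in WT IM. In jmj703 IM it began at 2.302 kb, just outside the region. The nearest WT SAM H3K4me3 peak was 77 bp from the region.

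H3K4me3 in the IM was not used by the rule, though its absence from the SAM was. It overlapped 59 IM-new regions (5.49%, interval 4.28 to 7.02%) in SDG711 RNAi IM, 24 in jmj703 IM (2.23%, interval 1.51 to 3.30%) and 43 in WT IM (4.00%, interval 2.99 to 5.35%). Over all 7553 WT IM H3K27me3 peaks without WT SAM H3K4me3 the shares were 6.95%, 3.27% and 5.06% in the same order, and each of these values lay inside the interval of the IM-new share. In kept regions, which are longer, they were 7.97%, 3.26% and 5.54%, of which the SDG711 RNAi IM and WT IM values lay above the IM-new intervals. Over all 2355 new peaks with no WT SAM mark they were 5.44%, 2.68% and 4.25%, all inside the IM-new intervals. The shares were thus not particular to the regions present in every genotype. Some IM list had H3K4me3 at 67 of the 1074 regions (6.24%, interval 4.94 to 7.85%), and none had it at the other 1007. The share over all 7553 peaks, 8.5%, lay above that interval, and the share over the 2355 new peaks, 6.50%, lay inside it. H3K4me3 was in SDG711 RNAi IM but not WT IM at 22 regions (2.05%), and in WT IM but not SDG711 RNAi IM at 6 (0.559%). The shares over all 7553 peaks were 2.89% and 0.993%, so the same imbalance was seen over all such peaks.

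Where IM H3K4me3 did overlap, WT SAM H3K4me3 was often near. A WT SAM H3K4me3 peak lay within 1 kb at 31 of the 67 regions with H3K4me3 in any IM list (46.3%, interval 34.9 to 58.1%), against 118 of the other 1007 (11.7%, interval 9.88 to 13.9%). Of the 43 regions with WT IM H3K4me3, 18 had a WT IM peak that itself overlapped a WT SAM H3K4me3 peak outside the region, against 50 of 194 kept regions. The WT IM H3K4me3 peaks covered a median of 18.1% of the region and had a median fold of 4.56, below the 5.99 of the whole WT IM H3K4me3 list.

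All 3 IM lists had H3K4me3 at 16 IM-new regions (1.49%, interval 0.919 to 2.41%), near the 1.96% over all WT IM peaks without WT SAM H3K4me3. It covered under 10% of the region in every list at 5 of them and at least 50% in every list at 3. The one with the smallest H3K27me3 p, at chr4:35132678-35136354, was of the first kind. Its H3K4me3 peaks covered 7.42% of the region in SDG711 RNAi IM, 1.58% in jmj703 IM and 3.59% in WT IM, and the nearest WT SAM H3K4me3 peak was 67 bp from it. The next, at chr5:29920276-29926218, was of the other kind. Its H3K4me3 peaks covered 54.1%, 75.1% and 97.4% in the same order, with 416, 272 and 902 H3K4me3 tags, and the nearest WT SAM H3K4me3 was 11805 bp away. The same 5943 bp held 492 H3K27me3 tags in SDG711 RNAi IM, 604 in jmj703 IM and 1125 in WT IM. Both marks were thus listed over the same sequence, from separate libraries, which does not show that they sat on the same nucleosomes. The regions chr12:1590480-1594471 and chr2:7552031-7555009 completed the 4 with the smallest p, and H3K4me3 covered at most 6.31% of either in any list.

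IM-new regions were spread over all 12 chromosomes. They made up the largest share of WT IM H3K27me3 peaks on chromosome 12, with 117 of 856 (13.7%, interval 11.5 to 16.1%), then on chromosome 11 with 106 of 912 (11.6%) and chromosome 4 with 111 of 992 (11.2%). The smallest share was on chromosome 2, with 77 of 1080 (7.13%, interval 5.74 to 8.82%). Counted against IM-new and kept regions together, chromosome 4 was highest, with 111 IM-new and 259 kept regions, and chromosome 2 lowest, with 77 and 337. Within the 100 kb around a region, at most 2 WT SAM H3K4me3 peaks were found at 206 IM-new regions (19.2%, interval 16.9 to 21.6%), 575 kept regions (16.4%, interval 15.2 to 17.7%) and 12.99% of all WT IM peaks.

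Another WT IM H3K27me3 peak of any kind lay within 10 kb of 658 IM-new regions (61.3%, interval 58.3 to 64.1%), against 53.6% of all WT IM peaks. Within 1 kb one was found at 199 IM-new regions (18.5%, interval 16.3 to 21.0%), against 11.8% of all WT IM peaks and 11.0% of kept regions (interval 10.0 to 12.1%). Over all 2355 new peaks with no WT SAM mark, the shares were 59.6% within 10 kb and 16.9% within 1 kb. Such neighbours were thus not particular to the regions present in every genotype. The spacing of IM-new regions among themselves was counted as well, without a compared set. When those at most 10 kb apart were joined, 964 had no IM-new neighbour and 110 formed 55 pairs, with no longer run. The pair with the strongest member spanned chr7:202850-206803. Its weaker member, 1208 bp long, had densities of 8.50 in SDG711 RNAi IM, 6.93 in jmj703 IM and 5.21 in WT IM. The pair at chr12:16614991-16631296 held a member of 5713 bp with densities of 19.1, 16.5 and 13.4 in the same order, and WT SAM H3K27me3 lay 1477 bp from it. The third, at chr11:17391240-17406714, was 17411 bp or more from WT SAM H3K27me3. Its stronger member had its highest density in WT IM, with 7.35 in SDG711 RNAi IM, 7.25 in jmj703 IM and 7.71 in WT IM.

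An absent WT SAM peak does not mean an absent mark. The H3K4me3 library of WT SAM held 13703302 tags with 24.4% in peaks, against 18452560 tags and 38.7% in WT IM. How many H3K4me3 peaks WT SAM missed was not estimated. For H3K27me3, the WT SAM library had 0.713 times the tags of WT IM. With the background that each deposited p implies, and at equal enrichment, a library of that depth was expected to miss 202 of the 1074 IM-new regions. With the 1.26 times higher enrichment measured at peaks shared with WT SAM, that number was 67.4. The WT SAM absence itself was set by the rule, so the part of depth in it was not tested. A detection probability of at least 0.99 at both settings applied to 335 IM-new regions. The median IM-new region could have held up to 70.2% of its WT IM excess over background in WT SAM without being called. For the region with the smallest p this limit was 26.5%. At regions where it exceeded 100%, such as the longest on chromosome 12 (106%), the same excess in the SAM could have gone uncalled.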

How the data were processed

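MACS 1.4.0rc2 was run by the authors on each library by itself, on alignments named as free of duplicates, without a control library, at a p cutoff of 1e-05 and an effective genome size of 401 Mb, per the file headers. The submitters' processing notes also list Bowtie2 2.1.0, Cufflinks 2.2.1, TopHat2 2.0.13 and Trimmomatic 0.32, and say nothing of the use of each. Per the file headers, each deposited peak has a raw tag count, a score (−10 times the log10 of its Poisson p) and a fold enrichment, the ratio to the regional background of the same library. Starts below 1 were set to 1. Folds and scores, which are the authors' values, were used to describe and rank peaks within a list.

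Overlaps, nearest distances and densities (tags of all overlapping peaks, per kb of those peaks, per 1000000 tags after filtering) were computed in Python 3.11.15 with scipy 1.17.1 and pandas 2.3.3, and the code was tested on simulated data. The background of a peak is the Poisson mean whose chance of more tags equals the deposited p. Detection assumes Poisson counts over the same interval and no spread between preparations. Densities from different peak lengths and libraries of different enrichment are relative values. The members and sets were chosen with earlier results of these data known. Named regions follow a rule: the 8 smallest p, the 5 longest, the 4 smallest p with H3K4me3 in all 3 IM lists, the 4 farthest from WT SAM H3K27me3, the 3 highest and 3 lowest ratios per altered genotype, 3 of the runs with most members (all 55 have 2, so those with the smallest p in a member were taken) and the 2 nearest on each side of the border. Alternatives for overlap, border, cutoff, depth, scaling and matching were tried. The 6 RNA samples were not analysed here.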

Additional observations from a re-analysis of the deposited data

How the results depend on the processing

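No paired analysis was possible because each ChIP group had 1 library, and for the same reason no library could be left out. Asking for 50% coverage in place of 1 bp, for presence and for absence, gave 2002 members, of which 999 were among the 1074, with a median length of 2504.5 bp, H3K4me3 shares of 12.9% (SDG711 RNAi IM), 6.74% (jmj703 IM) and 11.1% (WT IM), and 69.3% within 5 kb of WT SAM H3K27me3. Asking for no WT SAM peak within 1 kb kept 802 members and changed the H3K4me3 shares to 3.87% in SDG711 RNAi IM and 2.49% in WT IM, and the share within 5 kb to 28.6%. A p of at most 1e-10 in all lists gave 876 members, 419 of them among the 1074, since weaker WT SAM peaks then no longer counted. Their median length was 2360.5 bp, the median fold 3.52 (3.515 unrounded), H3K4me3 stood at 9.02% in SDG711 RNAi IM and 6.28% in WT IM, and 20.3% were within 5 kb. The same p in the 3 IM H3K27me3 lists alone left 419 members, with a median length of 2097 bp, a median fold of 3.54 and 29.4% within 5 kb. A detection probability of at least 0.99 left 335 members, with 2256 bp, a fold of 3.64, H3K4me3 at 8.06% in SDG711 RNAi IM and 6.27% in WT IM, and 29.0% within 5 kb.

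The median log2 density ratio over WT IM, scaled to tags inside peaks, was 0.34 for SDG711 RNAi and 0.12 for jmj703. It was 0.69 and 0.35 for the excess over background, an alternative chosen after seeing the data. On the first scale the medians of kept regions were 0.25 and 0.06, and on the second 0.47 and 0.23, so the IM-new median was the higher under each scaling. Members matched 1 peak to 1 peak gave 0.38 and 0.19. Why the values moved was not tested.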
